A study of Mus musculus with 2 samples.

Results

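The nuclear receptors are transcription factors that are switched by small fat-soluble ligands such as steroids, thyroid hormone, vitamin D, oxysterols and fatty acids. Most carry a zinc finger domain that binds DNA and a separate pocket that holds the ligand, and they turn genes on or off by exchanging corepressor for coactivator complexes. In the lung they are known for the glucocorticoid control of maturation and inflammation, for peroxisome proliferator-activated receptor gamma in alveolar macrophages, and for liver X receptors in surfactant and cholesterol handling.

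The 37 genes described here are the rows of both gene tables whose mouse symbol is on a list of nuclear receptors, out of 43346 gene rows in all. All 37 were found, each on 1 row. Other receptors, such as those for retinoids and Nr1d1, are not on that list and are given only as part of the pathway. The study sequenced polyadenylated RNA of over 200 nt from whole lung of adult C57BL/6J mice, 8 weeks old, in 2 libraries called biological replicates 1 and 2. Males and females were pooled, the labels name no treatment and give the health state as unknown, and both libraries carry the same donor record but separate tissue samples. How many animals were used is not stated, and the gap between the libraries may include technical variation. There is 1 group and no between-group comparison, and no p-value is given. Values of a gene are given in the order replicate 1 and replicate 2.

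Gene rows held 48234758 counts in replicate 1 and 44182823 in replicate 2, after rounding. Lung markers were high in both libraries: the 5 alveolar type 2 genes summed to 29186 and 30433 TPM (a transcript abundance corrected for length and depth), and 5 endothelial genes to 3312 and 3367 TPM. The libraries differed in genes of other tissues. Replicate 1 held more squamous epithelium (4043 against 0.59 TPM summed over 5 genes), skeletal muscle (2652 against 55.8 TPM over 4 genes) and brown fat RNA (280 against 48.9 TPM over 4 genes). Replicate 2 held more intestinal epithelium (2.48 against 119 TPM over 5 genes), pancreatic acinar (1.35 against 83.7 TPM over 3 genes), white fat (98.9 against 251 TPM over 4 genes) and erythroid RNA (12061 against 35333 TPM over 3 genes). Krtdap, Krt6a and Tnnc2, of squamous epithelium and muscle, had no counts in replicate 2, and the acinar genes Ctrc and Sycn had none in replicate 1. Cardiac muscle genes were present in both, at 360 and 274 TPM over 4 genes. In whole tissue, more cells of a type and more RNA per cell cannot be told apart.

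Of the 37 receptors, 24 reached 1 TPM in both libraries, against 32.0% of all gene rows. Hnf4a passed in replicate 2 only, Esrrg in replicate 1 only, and 11 in neither. In replicate 2, 1.15 of the 2.14 TPM of Hnf4a lay on 1 short transcript with 9 counts. By mean level, 3 receptors stood above 100 TPM, 10 between 10 and 100, 12 between 1 and 10, and 12 under 1. The receptors together took 0.0839% and 0.0963% of all TPM. The median of the 24 detected receptors was 13.7 and 12.1 TPM, beside 15.4 and 13.3 TPM over the 13855 detected genes, and 12 of the 24 lay in the upper part of the detected genes, above their median. The receptors ran from Nr1h2, at percentile 95.1 of the detected genes, down to 3 genes with no read.

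**Figure D1:**
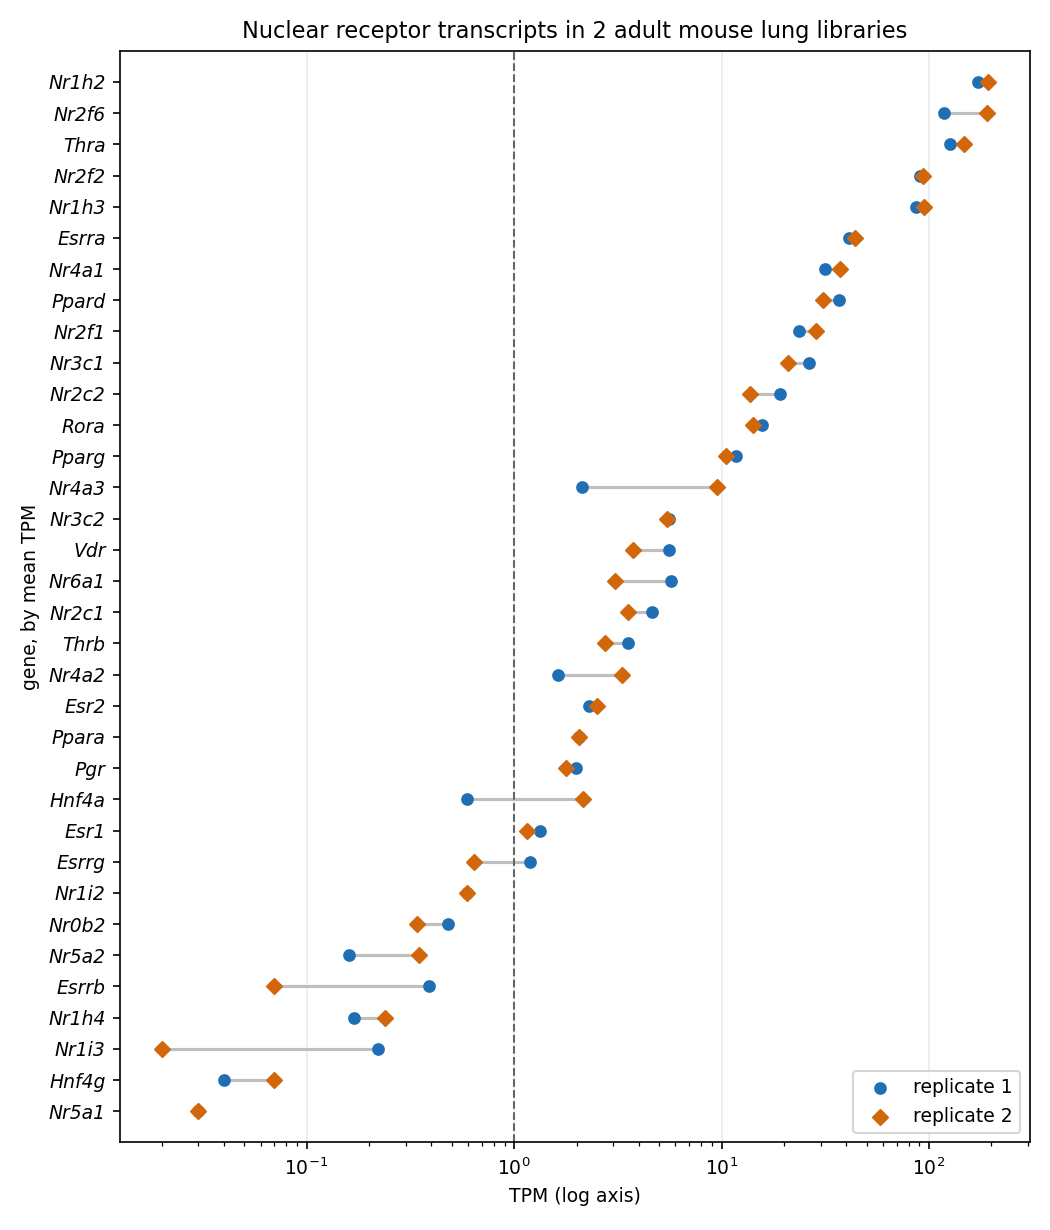
Level of each receptor in replicate 1 (circles) and replicate 2 (diamonds), in TPM on a log axis, with a grey line joining the libraries and a dashed line at 1 TPM. Nr1h2, Nr2f6 and Thra lead above 100 TPM, and the widest gaps between libraries among genes at or above 1 TPM on average are those of Nr4a3 and Hnf4a; Nr2e1, Nr2e3 and Nr0b1, at 0 in both, are not drawn.

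The sterol receptors were led by Nr1h2, which encodes liver X receptor beta, an oxysterol sensor (chromosome 7, 44549616 to 44553951 on mm10). It had the highest mean level of the 37, with 172 and 193 TPM, or 183 ± 14.8 (SD, n = 2). Nr1h3, its partner paralog liver X receptor alpha, which is prominent in macrophages and liver, had 86.5 and 94.7 TPM. Nr1h4, the bile acid receptor FXR, had 0.17 and 0.24 TPM on 11 and 15 counts. The libraries lay close for both liver X receptor genes: after TMM scaling (a scaling of library sizes), Nr1h2 was 1.31-fold (95% exact interval 1.27 to 1.34) and Nr1h3 1.27-fold (1.22 to 1.32) higher in replicate 2. All such intervals cover counting error only.

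The Nr2 orphan receptors, for which no physiological ligand is settled, included the second and the fourth of the 37 by mean level, with Thra between them. Nr2f6 (EAR2, chromosome 8, 71374123 to 71381960) had 118 and 191 TPM, or 154 ± 51.8 (SD, n = 2). Its values enclosed those of Thra, the next in rank, and its higher value lay between those of Nr1h2, so the order of these genes is not set beyond their spread. Nr2f2, or COUP-TFII, which marks venous and lymphatic endothelium and mesenchyme, had 90.5 and 93.3 TPM and did not differ from Nr1h3 beyond the spread of the libraries. Its close paralog Nr2f1, COUP-TFI, stood lower at 23.6 and 28.4 TPM. Nr2c2 (testicular receptor 4) had 19.2 and 13.8 TPM and Nr2c1 (testicular receptor 2) 4.61 and 3.53 TPM. Nr2e1 and Nr2e3, receptors of the brain and of photoreceptors, had no counts in either library. A count of 0 allows up to 3 counts per library.

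The thyroid hormone receptors were unequal. Thra (chromosome 11, 98740638 to 98769006) had 126 and 148 TPM, and Thrb 3.55 and 2.75 TPM. The alpha gene thus made up nearly all of the RNA of this gene pair, counted over all its forms, which are given below. Vdr, the vitamin D receptor, had 5.58 and 3.75 TPM. Its counts, 645 and 536, gave a scaled ratio of 0.996 (0.887 to 1.12), while its TPM was lower in replicate 2, where less of the gene's TPM was assigned to its short transcripts.

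Among the peroxisome proliferator-activated receptors, which bind fatty acids and their derivatives, Ppard was highest with 36.7 and 30.7 TPM. Pparg had 11.8 and 10.5 TPM and Ppara, the fasting-response member, 2.05 and 2.06 TPM. None of these genes was 2-fold apart, and the order Ppard, Pparg, Ppara held in both libraries without overlap.

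The 5 steroid receptors on the list were all detected, over a broad range. Nr3c1, the glucocorticoid receptor (chromosome 18, 39410545 to 39519421), led with 26.4 and 21.0 TPM on 4817 and 3243 counts. Nr3c2, the mineralocorticoid receptor, followed with 5.60 and 5.46 TPM. The sex steroid receptors were low: Esr2 had 2.30 and 2.50 TPM, Pgr 1.99 and 1.78 TPM, and Esr1 1.34 and 1.15 TPM. Esr2, oestrogen receptor beta, thus stood above Esr1, oestrogen receptor alpha, in each library, with 248 and 262 against 171 and 143 counts.

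The oestrogen-related receptors, orphan receptors that drive genes of mitochondrial energy metabolism, were represented by Esrra, with 41.1 and 44.0 TPM. Esrrg had 1.19 and 0.64 TPM, and Esrrb 0.39 and 0.07 TPM on 57 and 10 counts. Rora, a receptor of the circadian clock and of innate lymphoid cells, had 15.6 and 14.2 TPM.

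Receptors of the liver, the gut and steroid-making glands were near the bottom. Nr1i2, the xenobiotic sensor PXR, had 0.59 TPM in both libraries. Nr1i3, its relative CAR, had 0.22 and 0.02 TPM on 13 and 2 counts, none of them assigned to a protein-coding transcript. The exons of Nr1i3 share 74.9% of their bases with Tomm40l on the opposite strand (25.6 and 24.1 TPM), and the sources used here do not say whether quantification used strand. Nr0b2, the repressor SHP, had 0.48 and 0.34 TPM, Nr5a2 0.16 and 0.35 TPM, and Hnf4g 0.04 and 0.07 TPM. Nr5a1, or steroidogenic factor 1, had 3 and 2 counts, and Nr0b1, or DAX1, none. Nr6a1, a germ cell and embryo orphan, was the exception of its class with 5.72 and 3.05 TPM. Of this, 40.6% and 42.1% was assigned to protein-coding transcripts. The steroidogenic marker genes were also low, with 0.89 and 0.75 TPM summed over 4 genes.

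The libraries were then compared gene by gene, by counts over TMM-scaled library size, for receptors whose mean count reached 50. Of the 26 such receptors, 4 were 2-fold or more apart, beside 6.83% of the 14708 genes of that depth. All 4 were higher in replicate 2, where the share over all genes was 2.26%. None was higher in replicate 1, where it was 4.57%. They were Hnf4a, Nr4a3, Nr4a2 and Nr2f6. The median log2 ratio of replicate 2 over replicate 1 was 0.13 over the 31 receptors whose mean count reached 10, beside -0.02 over all genes of that depth. Of all genes called, 33.1% were higher in replicate 2, and 22.3% when scaled by library size alone. Scaled in that way, the medians were -0.0048 and -0.15, and Nr2f6 was then under 2-fold with a log2 ratio of 0.91.

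**Figure D2:**
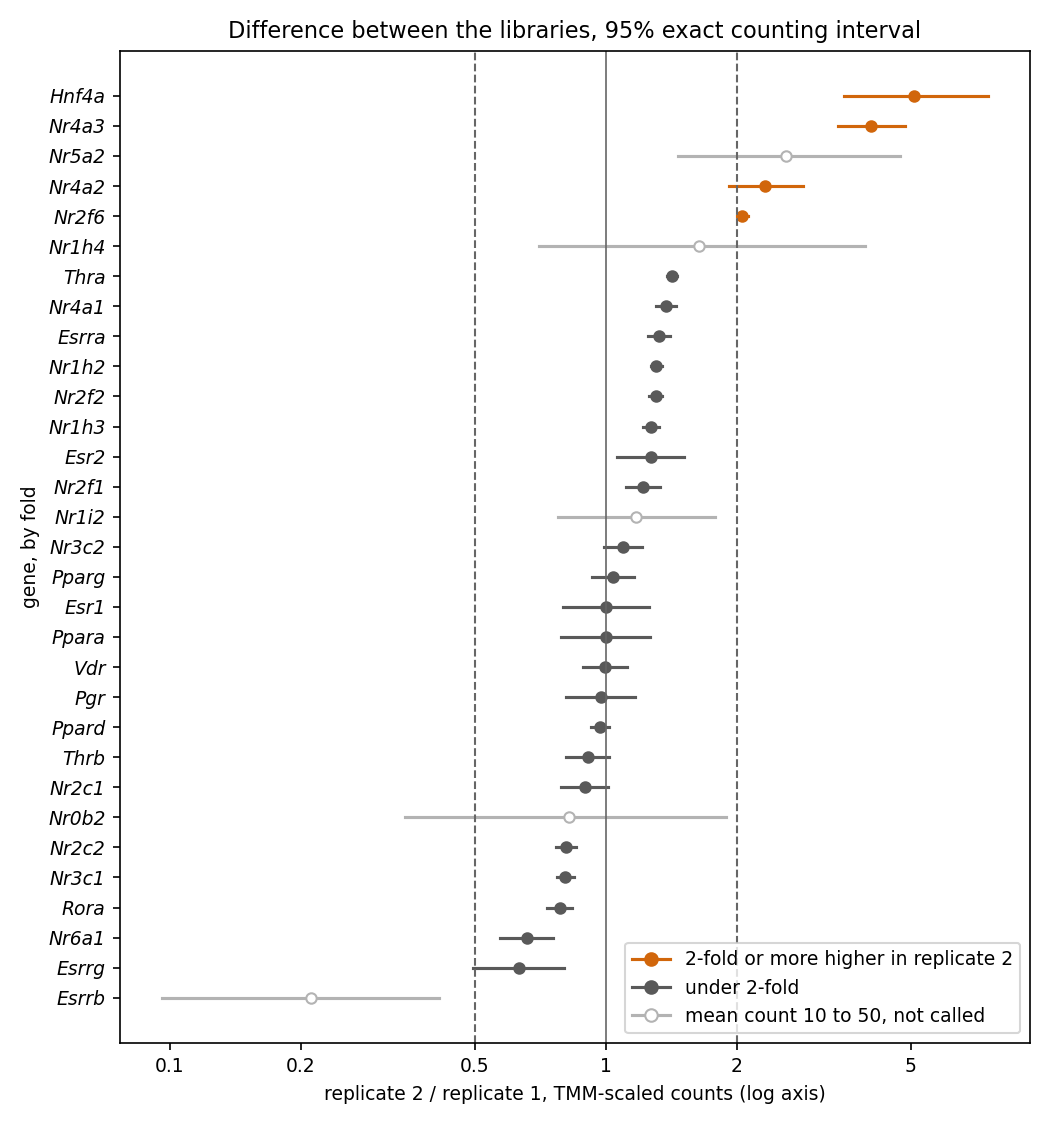
Ratio of replicate 2 to replicate 1 for the 31 receptors whose mean count reached 10, on a log axis, with the 95% exact interval of counting error as bars and dashed lines at 2-fold. Hnf4a, Nr4a3, Nr4a2 and Nr2f6 (orange) lie at or beyond 2-fold towards replicate 2, and open symbols mark genes with a mean count under 50, such as Esrrb.

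The Nr4a genes are immediate early genes, switched on within minutes by growth factors, calcium or stress and thought to act without a ligand. Nr4a1, or Nur77, was the most abundant, with 31.7 and 37.2 TPM on 2591 and 2973 counts. Nr4a3, or NOR1, had 2.12 and 9.50 TPM on 168 and 569 counts and was 4.06-fold (3.41 to 4.85) higher in replicate 2. Nr4a2, or Nurr1, had 1.63 and 3.32 TPM on 161 and 312 counts and was 2.32-fold (1.91 to 2.83) higher. Nr4a1 was 1.38-fold (1.30 to 1.45) higher, so all 3 genes pointed the same way and by unequal amounts. The same direction held when scaled with DESeq2 size factors, by library size and on log2(TPM + 0.1).

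For Nr4a3, part of the difference lay on transcripts that the later annotation lists as processed transcripts without a coding label. Nr4a3-202 had 40.5 and 227 counts and the coding Nr4a3-201 had 115 and 293 counts. The coding transcript made up 27.2% and 15.9% of the gene's TPM. The coding form was thus also more abundant in replicate 2, with 0.58 and 1.51 TPM.

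Since all 3 Nr4a genes were higher in replicate 2, the sequences upstream of their starts are shown, from RefSeq on GRCm38.p6. The 250 bases before each start were searched on both strands for TGACG, the core of the cAMP response element (CRE), and capitals mark it or its reverse complement. Nr4a1 is at chr15:101266596-101266845 on the plus strand, Nr4a2 at chr2:57124004-57124253 on the minus strand and Nr4a3 at chr4:48045055-48045152 on the plus strand. For Nr4a3 only the 98 bases outside annotated exons are printed.
Nr4a1: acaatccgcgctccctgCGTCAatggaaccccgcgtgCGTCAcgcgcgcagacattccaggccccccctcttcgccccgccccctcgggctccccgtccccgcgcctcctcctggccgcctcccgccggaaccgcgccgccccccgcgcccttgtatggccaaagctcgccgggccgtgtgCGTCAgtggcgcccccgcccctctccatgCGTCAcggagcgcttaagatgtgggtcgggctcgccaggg
Nr4a2: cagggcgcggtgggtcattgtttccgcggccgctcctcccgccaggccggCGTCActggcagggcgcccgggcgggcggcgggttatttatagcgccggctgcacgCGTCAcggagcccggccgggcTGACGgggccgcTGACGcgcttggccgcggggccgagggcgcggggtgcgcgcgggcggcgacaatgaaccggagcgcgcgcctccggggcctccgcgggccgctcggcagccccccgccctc
Nr4a3: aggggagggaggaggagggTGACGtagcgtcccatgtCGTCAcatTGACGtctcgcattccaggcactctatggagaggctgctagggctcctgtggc

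Each of these 3 windows of 250 bases held TGACG 4 times, counted over both strands. For Nr4a3, 3 of the 4 are in the printed stretch. At least 1 match was present in 17.8% of the 32851 RefSeq promoters, and in 11 of the 46 promoters of 33 receptors. Chromosome 18, where Nr3c1 lies, was left out of the receptor promoters and not of the full set. The share of promoters with 4 matches was not counted. TGACG holds a CG, and the windows of Nr4a1, Nr4a2 and Nr4a3 had 74.4%, 80.0% and 63.6% GC. The median over all RefSeq promoters was 52.4%. The full CRE palindrome TGACGTCA, which contains TGACG, was in none of the 3 windows and in 1.55% of all promoters. The CArG box, the site of serum response factor, was in none of them either and in 1.47% of all promoters. A match describes these letters only, and an absent match says nothing about a factor. In Nr4a2 the start used for this window belongs to Nr4a2-203, which had 30.9 and 33 counts. Nr4a2-202 (53.7 and 147 counts) and Nr4a2-201 (73.8 and 127 counts) are annotated from starts further downstream. In Nr4a3 the window precedes base 48045305, whereas Nr4a3-202 (40.5 and 227 counts) is annotated from base 48051248, further downstream.

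The other immediate early genes were read beside them. Of 10 genes on that list, 1 exceeded 2-fold towards replicate 2 (Atf3, with 4.23 and 8.02 TPM) and none towards replicate 1. The shares over all genes were 2.26% and 4.57%. The median log2 ratio of the list was 0.70. The most abundant, Jun, had 156 and 263 TPM and Junb 70.0 and 114 TPM. Egr1 was 1.31-fold (1.25 to 1.38) higher in replicate 2, with 28.6 and 31.1 TPM, and Ier2 was the only member lower in replicate 2 after TMM scaling, with 41.7 and 32.2 TPM. Scaled by library size or on log2(TPM + 0.1), 8 rather than 9 of the 10 were higher in replicate 2.

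Hnf4a encodes the fatty acid-binding receptor that defines liver, gut and pancreatic epithelium (chromosome 2, 163506808 to 163572910). It had 0.59 and 2.14 TPM on 36 and 153 counts and was 5.09-fold (3.52 to 7.54) higher in replicate 2. This was the largest ratio of scaled counts among the 26 receptors, with an interval that overlaps that of Nr4a3. On log2(TPM + 0.1) the difference was 1.70 for Hnf4a and 2.11 for Nr4a3. Hnf4a was higher in the same library as the intestinal and pancreatic acinar markers, whose 4 and 3 genes of sufficient depth all exceeded 2-fold in that direction. Of all genes of that depth, 2.26% did so. Muc2 had 48 and 2619 counts and Ctrb1 33 and 1296. Liver markers did not follow it: Alb was 2.48-fold (2.14 to 2.88) higher in replicate 1. The part of these tissues in the Hnf4a counts was not tested.

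Hnf4a has an upstream promoter, known as P2 and used in pancreatic islets, and a downstream promoter P1, used in liver. Nearly all of its counts were assigned to transcripts of the downstream start. The annotated form from the upstream start, Hnf4a-205, has 3 exons, whereas the long forms Hnf4a-201 and Hnf4a-202, of 10 exons, begin downstream. Reads from later exons could go only to forms that begin downstream, so these counts cannot tell which promoter was used. Hnf4a-201, from base 163547188, had 33 and 41.7 counts and Hnf4a-202, from base 163547187, had 0.01 and 102 counts. These starts are 1 base apart, so the division of reads between them is uncertain. Hnf4a-205, from the upstream start at 163506808, had 3 and 9 counts. Being only 431 bases long, it nevertheless took 62.9% and 53.9% of the gene's TPM, and its share rests on those few counts. The stretches before both starts are shown, from RefSeq on GRCm38.p6 and the plus strand, the upstream one at chr2:163506607-163506807 and the downstream one at chr2:163546943-163547154, each cut where an annotated exon begins or ends.
Hnf4a upstream: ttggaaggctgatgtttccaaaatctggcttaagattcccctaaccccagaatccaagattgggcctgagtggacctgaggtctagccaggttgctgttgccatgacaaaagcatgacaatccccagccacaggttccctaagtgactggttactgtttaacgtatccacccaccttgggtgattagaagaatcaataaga
Hnf4a downstream: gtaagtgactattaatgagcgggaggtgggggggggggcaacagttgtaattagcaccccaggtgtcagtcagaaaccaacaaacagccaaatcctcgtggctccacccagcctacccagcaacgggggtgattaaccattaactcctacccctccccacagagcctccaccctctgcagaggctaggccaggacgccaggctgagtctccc
Neither stretch held TGACG. The 250 bases before the upstream start held the GC box GGGCGG once, within the bases left out as exon. Of all promoters, 32.7% held at least 1 match.

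Nr2f6 was 2.06-fold (2.00 to 2.12) higher in replicate 2, with 6876 and 11799 counts. The difference lay on its main coding transcript, Nr2f6-201, with 91.5 and 163 TPM. The short Nr2f6-208 was level at 15.6 and 16 TPM. The exons of Nr2f6 share 54.4% of their bases with Ocel1 on the opposite strand, which had 15 and 19.7 TPM on 1103 and 1381 counts.

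Towards replicate 1, no receptor of that depth reached 2-fold. The nearest were Esrrg, 1.58-fold (1.24 to 2.02) higher on 201 and 106 counts, and Nr6a1, 1.52-fold (1.32 to 1.75) higher on 570 and 313 counts. Esrrb, with a mean count under 50, was 4.76-fold (2.41 to 10.4) higher in replicate 1. Esrrb and Esrrg are genes of tissues rich in mitochondria, and replicate 1 also held more of the brown fat gene Ucp1, at 158 against 1.94 TPM, and of skeletal muscle Acta1, at 1684 against 1.09 TPM. The share of those tissues in the receptor counts was not tested. Nr3c1, Nr2c2 and Rora were 1.24-fold (1.18 to 1.30), 1.23-fold (1.17 to 1.30) and 1.28-fold (1.20 to 1.36) higher in replicate 1. Their log2 ratios were -0.31, -0.30 and -0.35. These exceed counting error and lie within the spread between the libraries. The robust SD over 17334 genes was 0.46 for log2 ratios and 0.32 per library for log2 expression.

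Transcripts of 14 receptors with at least 5 TPM in both libraries were examined by their percent of the gene's TPM, a deposited value. Of the 13 with more than 1 annotated transcript, 11 had the same main transcript in both libraries, beside 85.8% of 7372 such genes. The exceptions were Nr1h2 and Nr3c2. In Nr1h2 the leading transcript was Nr1h2-203 in replicate 1 (25.8%) and Nr1h2-201 in replicate 2 (24.2%), whose starts are 1 base apart. In Nr3c2 it was Nr3c2-203 in replicate 1 (45.9%) and Nr3c2-201 in replicate 2 (49.5%).

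**Figure D3:**
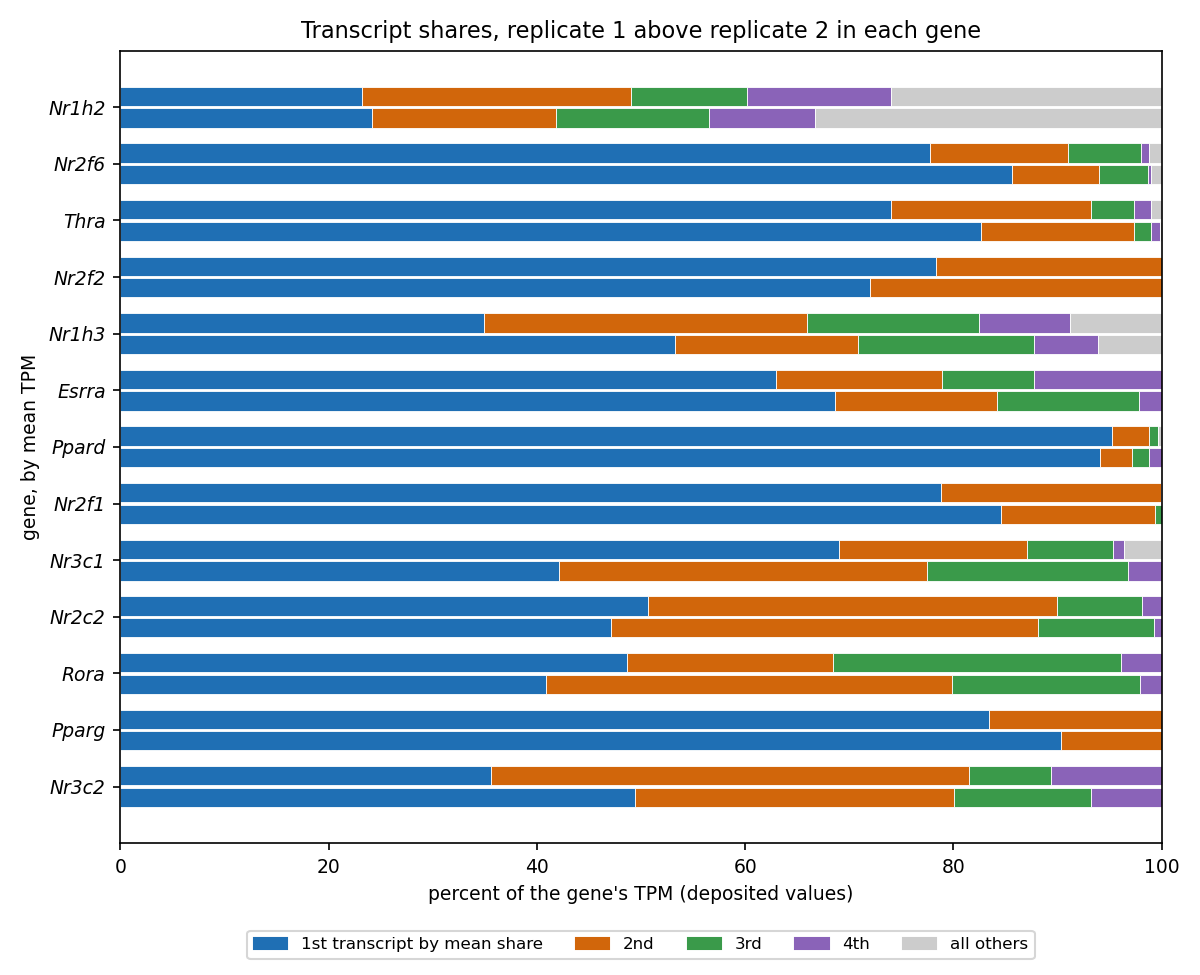
Percent of each gene's TPM on its transcripts for the 13 receptors with at least 5 TPM in both libraries and more than 1 transcript, with replicate 1 above replicate 2 and transcripts ordered by mean share. Ppard and Pparg are dominated by 1 transcript in both libraries, while Nr1h2 is divided among many and the leading share of Nr3c1 differs between the libraries (69.0% and 42.1%).

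Pparg is made from alternative first exons. The upstream start gives the broadly expressed gamma 1 form and the downstream start gives gamma 2, best known from fat cells. Pparg-201, from the downstream start at 115422066 on chromosome 6, held 83.4% and 90.3% of Pparg TPM, on 555 and 523 counts. Pparg-202, from the upstream start at 115360951, held 16.6% and 9.68%, on 116 and 59.2 counts. All 4 white fat genes exceeded 2-fold towards replicate 2, beside 2.26% of all genes, among them Adipoq at 17.1 and 53.0 TPM. Brown fat genes went the other way, at 280 and 48.9 TPM summed over 4 genes. Pparg itself was level, with 671 and 582 counts and a ratio of 1.04 (0.929 to 1.16), and the level of Pparg-201 was 9.85 and 9.51 TPM. Alveolar macrophage markers summed to 559 and 459 TPM over 4 genes. The shares are estimates from reads over shared exons, and the part of each cell type in them was not tested.

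RefSeq gives 3 Pparg starts. The sequences before those of the transcripts above differ in composition and are shown, from RefSeq on GRCm38.p6, plus strand, cut where an annotated exon begins. The upstream stretch is chr6:115360894-115360950 and the downstream one chr6:115421816-115422065.
Pparg upstream: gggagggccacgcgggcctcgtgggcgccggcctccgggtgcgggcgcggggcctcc
Pparg downstream: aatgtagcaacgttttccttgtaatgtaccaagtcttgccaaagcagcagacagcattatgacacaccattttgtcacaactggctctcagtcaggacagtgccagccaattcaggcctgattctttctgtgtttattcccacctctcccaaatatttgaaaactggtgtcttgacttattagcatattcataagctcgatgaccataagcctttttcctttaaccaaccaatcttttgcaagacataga
Of the 250 bases before the upstream RefSeq start, 57 are printed and 193 were left out as annotated exon. Those 250 bases had 82.4% GC and 38 CG dinucleotides. The 250 before the downstream start, all printed, had 40.8% GC and 2 CG dinucleotides. The window before the remaining RefSeq start, which lies between them, had 63.6% GC, 12 CG dinucleotides and also 1 match to AGGTCA. The median over all RefSeq promoters was 52.4% GC. The sequence AGGTCA, the core element of many receptor sites, was found once in the window before the upstream start, within the bases left out as exon. It was not in the window before the downstream start. It was in 14.0% of all promoters and in 7 of the 46 receptor promoters.

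Thra makes a hormone-binding alpha 1 receptor and an alpha 2 variant whose last exon overlaps Nr1d1 on the opposite strand. Thra-201, the form that shares 263 bases with exons of Nr1d1, held 74.0% and 82.6% of Thra TPM. Thra-202, which shares none, held 19.3% and 14.7%. Nr1d1 itself had 189 and 306 TPM. Without knowledge of whether strand was used in quantification, reads from the shared bases cannot be assigned with certainty.

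Nr3c1 was assigned mainly to a coding transcript of 6327 bases, with 69.0% and 42.1% of its TPM, while the shorter Nr3c1-208 held 18% and 35.4%. On counts, the first had 4025 and 1906, and Nr3c1-208 had 289 and 440. For Nr1h3, the main transcript Nr1h3-202 held 34.9% and 53.3%. In Rora, Rora-202 led with 48.6% and 40.9%, and Rora-206, listed as subject to nonsense-mediated decay, held 19.8% and 39.0% on 60.5 and 106 counts. Nr2c2-205, of the same kind, held 39.3% and 41.0% of Nr2c2. The exons of Nr2c2 share 30.7% of their bases with Mrps25 on the opposite strand, which had 4.99 and 5.8 TPM.

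The partners and cofactors of the receptors were present throughout. Of 12 nuclear receptors outside the list, 9 were detected, and 0 of the 10 with enough counts were 2-fold apart. The share over all genes of that depth was 6.83%. Their median log2 ratio was 0.34. Nr1d1 and Nr1d2 lay just under 2-fold towards replicate 2, at 1.92-fold and 1.91-fold, and Rxrg towards replicate 1, at 1.89-fold. Rxra, the retinoid X receptor that pairs with the liver X, thyroid hormone, vitamin D and peroxisome proliferator-activated receptors, had 63.1 and 76.4 TPM, and Rxrb had 47.4 and 63.5 TPM. Of 14 coactivators 13 were detected and 0 were 2-fold apart, with a median log2 ratio of 0.15. Carm1 (74.5 and 67.9 TPM) and Sra1 (59.0 and 66.8 TPM) were highest, while Ppargc1a, the coactivator of oxidative tissues, had 2.47 and 1.42 TPM. All 8 corepressors were detected and 0 were 2-fold apart, with a median of -0.11. Gps2 had 99.7 and 96.6 TPM and Ncor1 82.1 and 75.2 TPM. The coactivator median turned to -0.14 on log2(TPM + 0.1), where the median of all genes was -0.22.

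**Figure D4:**
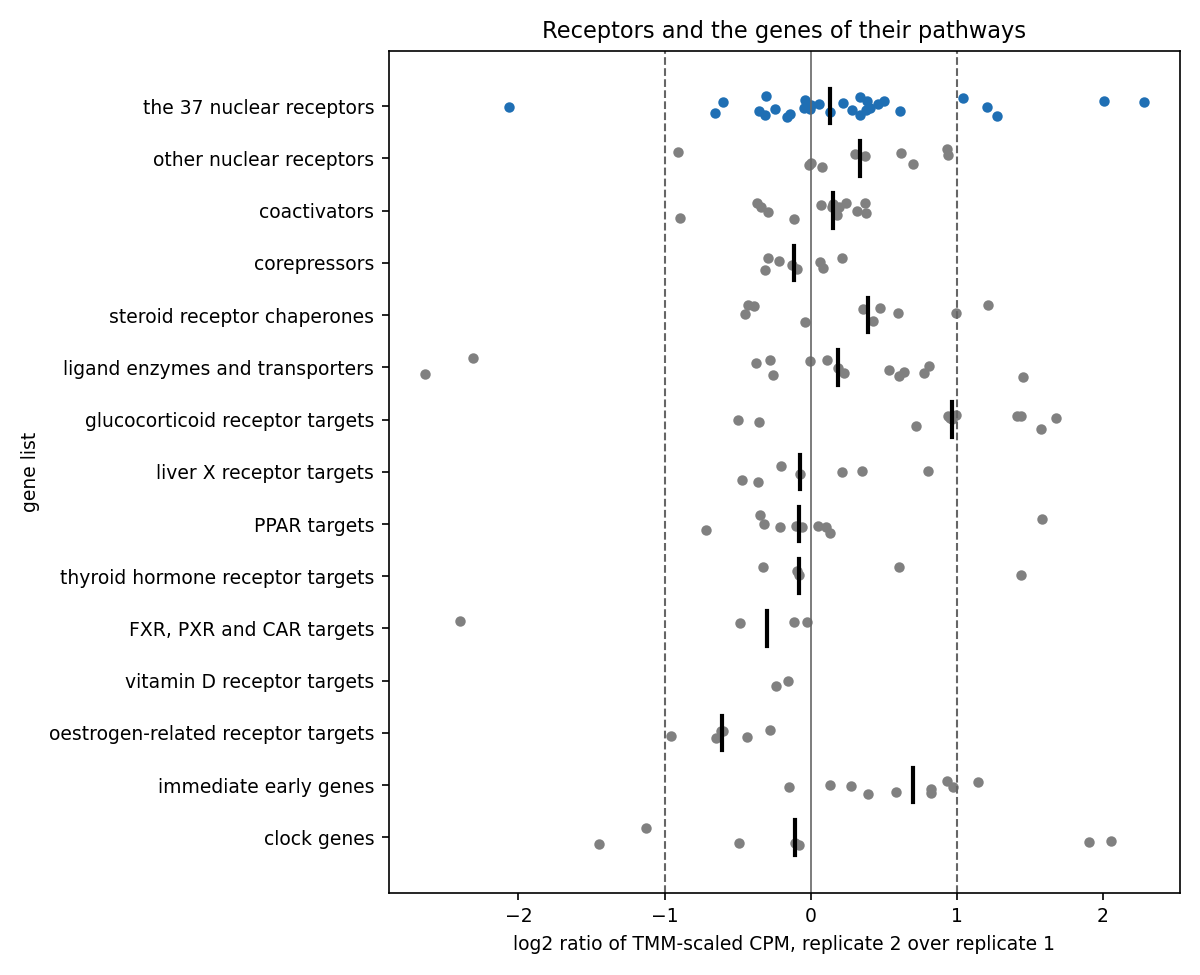
Log2 ratio of replicate 2 over replicate 1 after TMM scaling for the receptors (top row) and the genes of 14 pathway lists, for genes whose mean count reached 10, with black bars at medians of lists with at least 3 such genes and dashed lines at 2-fold. Glucocorticoid receptor targets lie furthest towards replicate 2 by median (0.97) and targets of oestrogen-related receptors furthest towards replicate 1 (-0.60).

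Steroid receptors are held in a ligand-ready state by heat shock chaperones. All 10 chaperone genes were detected, with a median log2 ratio of 0.39, and 1 was 2-fold or more apart, beside 6.83% of all genes. It was Ptges3 (p23), 2.33-fold (2.21 to 2.45) higher in replicate 2. Hspa8 had 1284 and 1476 TPM and Hsp90ab1 302 and 197 TPM. Among enzymes and transporters that make, import or remove ligands, 9 of 17 were detected. The list median was 0.18. Hsd11b1, which regenerates active glucocorticoid inside cells, had 216 and 195 TPM, and H6pd, which supplies its cofactor, 131 and 160 TPM. Hsd11b2, which inactivates glucocorticoid, was 2.77-fold (2.21 to 3.49) higher in replicate 2, at 1.90 and 4.49 TPM. Dio2, the deiodinase that activates thyroid hormone in brown fat and other tissues, was 6.67-fold (4.27 to 10.9) higher in replicate 1 on 176 and 22 counts. Hsd17b2, which inactivates sex steroids, was 5.21-fold (3.50 to 8.00) higher there on 181 and 29 counts. The aromatase gene Cyp19a1 had no counts.

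Of 11 established glucocorticoid receptor targets, 4 exceeded 2-fold towards replicate 2 and none towards replicate 1, beside 2.26% and 4.57% of all genes. Zbtb16 was 3.20-fold (3.03 to 3.38), Tsc22d3, or GILZ, 2.99-fold (2.90 to 3.07), Klf9 2.71-fold (2.63 to 2.80) and Per1 2.67-fold (2.58 to 2.76) higher. Fkbp5, with 7.73 and 13.4 TPM, was just under 2-fold with TMM, at a log2 ratio of 1.00, and just over it with DESeq2 size factors, at 1.01. Sgk1 (71.1 and 48.3 TPM) and Mt2 (43.4 and 26.3 TPM) were lower in replicate 2. The median log2 ratio was 0.97, and 0.83 when scaled by library size, while Nr3c1 itself had -0.31 and -0.44. Per1 also belongs to the circadian clock and Dusp1, at 207 and 334 TPM, to the immediate early response. Dbp and Per2, clock genes of the same phase in textbook rhythms, were 4.16-fold (3.96 to 4.38) and 3.75-fold (3.52 to 4.00) higher in replicate 2, and Arntl and Npas2 2.74-fold (2.43 to 3.10) and 2.19-fold (1.96 to 2.45) higher in replicate 1. The 7 clock genes thus held 2 in each direction, with a median of -0.11. The labels used here give no time of collection.

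Targets of other receptors were mostly within 2-fold, as were most genes of sufficient depth, of which 6.83% were 2-fold apart. With so few genes per list, these counts do not set the targets apart from all genes. None of 7 liver X receptor targets was 2-fold apart, with a median of -0.07, among them Scd1 at 1409 and 936 TPM, Apoe at 713 and 1038 TPM and Srebf1 at 183 and 221 TPM. Of 12 targets of the peroxisome proliferator-activated receptors, 10 were detected and 1 was 2-fold apart, Angptl4, an inhibitor of lipoprotein lipase, which was 3.0-fold (2.85 to 3.17) higher in replicate 2. The median of that list was -0.08. Thyroid hormone targets had a median of -0.08, with Klf9, shared with the glucocorticoid list, as the only member 2-fold apart. Of the 8 targets of FXR, PXR and CAR, 2 were detected. Cyp2b10, a classical CAR target of liver, had 143 and 112 TPM, and Fgf15 and Slc51b, targets of FXR, had no counts. The median of that list was -0.30 over 4 genes. Of 3 vitamin D targets, Trpv6 (3.30 and 2.40 TPM) and S100g (33.8 and 26 TPM) were detected and Cyp24a1 was not, with 0 and 2 counts.

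All 6 targets of the oestrogen-related receptors, genes of fat oxidation, the citric acid cycle and respiration, were lower in replicate 2. Of these, 0 of 6 reached 2-fold, beside 4.57% of all genes towards replicate 1. The median log2 ratio was -0.60, beside -0.02 over all genes, and -0.74 when scaled by library size, beside -0.15. Acadm, of fatty acid oxidation, was 1.94-fold (1.80 to 2.09) higher in replicate 1, and the citrate synthase gene Cs had 122 and 68.3 TPM. Esrra, the receptor of this class that was abundant, went the other way at 1.32-fold (1.25 to 1.40) higher in replicate 2, and Esrrg, Esrrb and Ppargc1a were higher in replicate 1. Skeletal muscle and brown fat markers stood higher in replicate 1 as given above, and their part in these counts was not tested.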

How the data were processed

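Polyadenylated RNA of 2 lung libraries of 1 group was measured as stranded paired reads of 76 nt, per the labels. The deposited expected counts are estimated fragments per gene or transcript, not normalized. TPM, as deposited, is length-corrected and sums to one fixed total with spike-ins included, FPKM, as deposited, is corrected for length and depth, and the deposited percent is a transcript's share of its gene's TPM, per the file headers. The build is mm10 with GENCODE M4, per the deposited file lists. Aligner, quantifier and strand setting were not given in the sources used here. Contig and junction lists, on mm9, were not used here.

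Symbols and positions came from GENCODE M21 on the same build, which matched 42462 of 43346 gene rows. Rows without a gene identifier were left out. Counts were rounded and scaled by TMM in edgeR 4.0.16 (R 4.3.3), with a prior count of 2 for log2 ratios. Folds used Clopper-Pearson 95% intervals. A gene was detected at 1 TPM in both libraries, and 2-fold calls needed a mean count of 50. DESeq2 1.42.0 gave alternative size factors. Other steps used Python 3.11.15. The fold step was tested on simulated data. With 1 group, no comparison between conditions was possible. All 37 members are named, with other genes from lists by a rule of calls, level and zeros. Members, lists and rules were chosen with earlier results of these data known. Genes named beyond that rule were chosen after their values were seen.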

Additional observations from a re-analysis of the deposited data

How the results depend on the processing

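The number of receptors detected was between 23 and 27 with a threshold of 0.5 TPM, 1 FPKM, the lower bound of the deposited TPM interval, or 1 library alone (25 in each), and 14 at 5 TPM. The number 2-fold apart was 4 with TMM and with DESeq2 size factors, 3 by library size, and 6 with a mean count of at least 10 or a fold of 1.5. It was 7 with no filter on counts, 2 on log2(TPM + 0.1), 1 on log2(TPM + 1) and 2 where the whole exact interval had to lie beyond 2-fold. The share over all genes was 6.83% with TMM, 6.84% with DESeq2 size factors and 7.33% by library size. It was 10.7% with a mean count of at least 10, 19.5% with a fold of 1.5 and 24.8% with no filter. On log2(TPM + 0.1) and log2(TPM + 1) it was 8.25% and 5.28%. For the interval rule it was not counted. Nr4a3 was called in all of these settings, and Hnf4a in all but log2(TPM + 1). The median log2(TPM + 1) of the 37 receptors was 1.87 ± 0.21, 1.46 with a pseudocount of 0.1 and 1.60 from FPKM, both by construction of the scale. The median log2 ratio lay between -0.0048 and 0.15 over the alternatives. No ratio of a gene called 2-fold apart changed sign, while Nr3c2, Esr1 and Pparg did so by library size, Vdr and Ppara with DESeq2 size factors, and Nr3c2, Esr1, Ppara and Pparg on log2(TPM + 0.1). A ratio needs both libraries, so the 2-fold calls were not repeated with either left out. Depth limits genes under 50 mean counts, such as Esrrb, Nr5a2 and Nr1i3, whose intervals are wide.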
